A study of Mus musculus with 7 samples.

Results

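The macrophages of MC38 tumours in 4 C57BL/6J mice, fed a high-fat diet and carrying the wild-type Gpr65 gene, are described here, gene by gene and mouse by mouse. The group is the 4 libraries whose labels give the Gpr65-wild-type genotype, of 7 libraries in the series, and each library came from its own mouse, numbered 1 to 4. MC38 is a mouse colon carcinoma line, and the cells were sorted from the tumours 21 days after implantation as positive for CD45, CD11b and F4/80. The other 3 libraries are of Gpr65 knockout mice and were not compared. Each library stands for the sorted cells of 1 mouse in bulk, so fewer cells of a type and less RNA per cell cannot be told apart, and no normal-diet group is among the samples analysed here, so the part of the diet in any value was not tested. The sources used here give no age, sex, cage or sorting day, and with 1 group there is no comparison and no test.

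Macrophages in a tumour derive largely from blood monocytes that enter the tissue, and they take up dying cells, proteins and lipid, degrade them in lysosomes and present part of the digested protein on MHC class II molecules. They secrete complement, chemokines and growth factors and can be driven to different programmes by the cytokines around them. Interferon gamma raises antigen presentation and nitric oxide synthesis, and interleukin 4 and interleukin 13 raise arginase 1 and a set of lectins and chemokines known as alternative activation genes. Gpr65 encodes a receptor that is activated by extracellular protons, which are plentiful in acidic tumours.

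The total count was between 22449772 and 28024612 reads assigned to genes per library, and between 20286 and 21606 genes had at least 1 count. Levels are given as CPM (counts scaled to a fixed library total), scaled between the 4 libraries by the TMM method, and an error is the SD over 4 mice (n = 4) throughout. A CPM value ranks genes by their share of the reads, and longer genes collect more reads, so an order of genes by CPM is an order of reads, and levels per length are given as reads per kilobase of exon on the same scale (RPKM). Correlations of log2 CPM between mice, described over genes with a mean of at least 1 CPM, were between 0.941 for mice 1 and 2 and 0.985 for mice 1 and 3. Gpr65 itself measured 97.2, 116, 96.3 and 66.96 CPM in mice 1 to 4, a mean of 94.1 ± 20.2 CPM, and it was present in every library labelled wild-type. A listed value of 0 needs care in this table, because a few genes that every cell uses, such as Atp5a1 of the mitochondrial ATP synthase, were also listed at 0 in all 4 libraries.

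The defining macrophage genes were high in all 4 mice. Of 6 markers of the sorted cells, 6 were above 100 CPM in the mean and 4 were among the 100 highest genes of the whole transcriptome. Apoe (chr7:19696109-19699188, GRCm38), the apolipoprotein E that carries cholesterol out of macrophages, measured 20492, 12657, 16429 and 10132 CPM in mice 1 to 4. It was the highest gene by mean CPM, and mouse 1 was highest and mouse 4 lowest. Csf1r, the receptor for the growth factor that macrophages need to survive, measured 3232, 2426, 2743 and 1853 CPM. C1qa, a chain of the complement component C1q, measured 2684, 3289, 2648 and 2878 CPM, and Cd68, a lysosomal glycoprotein of macrophages, measured 1334, 1259, 1160.2 and 1185 CPM. Cd68 was the most even of the 6 markers, with a coefficient of variation (CV, the SD as a percent of the mean) of 6.34%. The genes of the sort gate behaved less evenly. Ptprc, which encodes CD45, measured 725, 631, 746 and 599.8 CPM, Adgre1, which encodes F4/80, measured 688, 390.4, 671 and 336 CPM, and Itgam, which encodes CD11b, measured 305, 125, 250.04 and 147 CPM. For Adgre1 and Itgam mice 1 and 3 were both above mice 2 and 4, although all of these cells had passed the same gate.

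**Figure D1:**
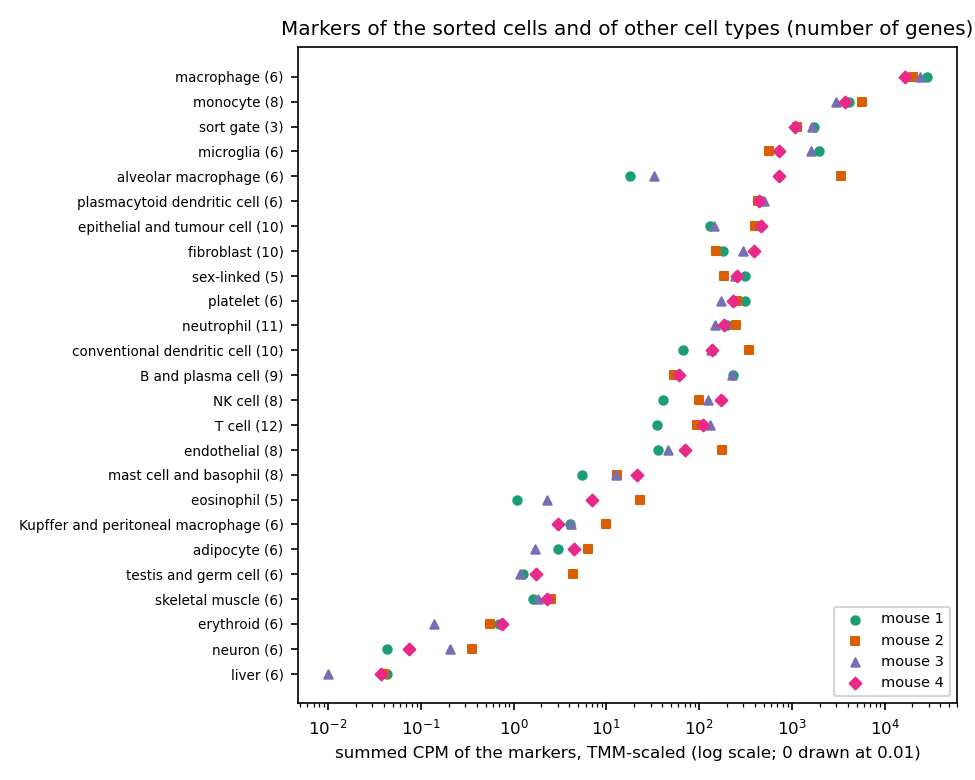
Each row is a list of marker genes (number of genes in brackets), and each point is the summed CPM of the list in 1 mouse on a log axis. The macrophage list lies between 16530 and 28734 CPM, while erythroid, neuron and liver markers lie below 1 CPM, and the alveolar macrophage list, which holds Chil3, has the widest range of the lists that exceed 1 CPM.

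Markers of other cell types were low next to the macrophage genes, and in several lists most of the level came from 1 or 2 genes. The T cell list of 12 genes summed to 35.1, 95.2, 133 and 112 CPM in mice 1 to 4, and the NK cell list of 8 genes to 40.4, 100.4, 125 and 173 CPM, with Gzmb, a cytotoxic granule protease, at 14.5, 20.1, 57.1 and 84.7 CPM. The neutrophil list of 11 genes summed to 199.7, 248, 149 and 185 CPM. Of its members 4 had a mean of at least 10 CPM, and none had a mean of 100 CPM or more. Among its lower members, Ly6g, which defines mouse neutrophils, was listed at 0 and S100a8 measured 4.55, 15.5, 1.52 and 10.8 CPM. The list of conventional dendritic cell genes summed to 67.4, 341, 136 and 138 CPM. Its highest member was Ccr7, the receptor that guides dendritic cells to lymph nodes, at 17.4, 175, 46.2 and 41.6 CPM, with mouse 2 far above the others. Other members that define dendritic cells were low, with Flt3 at 6.23, 14.2, 9.86 and 6.45 CPM and Clec9a at 0.130, 3.42, 1.79 and 2.10 CPM.

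Most of the mean level of the B cell, endothelial and epithelial lists came from 1 gene each. The B cell and endothelial lists each held 2 genes with a mean of at least 10 CPM. The endothelial list summed to 35.7, 179, 46.4 and 70.5 CPM in mice 1 to 4, so in mouse 1 Pecam1 was not most of it. Ighm, the constant part of the IgM heavy chain, measured 211, 37.7, 209 and 50.7 CPM and so was high in mice 1 and 3, while Cd79a, Igkc and Ms4a1 were each at or below 1.01 CPM in every mouse and Jchain was listed at 0. Pecam1, an adhesion molecule of endothelium and also of myeloid cells, measured 13.3, 169, 26.6 and 56.1 CPM, while Cdh5 and Tie1, which define endothelium, were at or below 1.39 CPM. Cdh1, which encodes E-cadherin, measured 128, 387, 136 and 449 CPM, higher in mice 2 and 4, whereas Epcam was at or below 5.44 CPM and Krt8 and Krt19 were at or below 2.89 CPM. Of the fibroblast genes Col3a1, a fibrillar collagen, was highest at 105, 86.99, 201 and 246 CPM, while Col1a1 was at or below 2.27 CPM. Erythroid genes summed to at most 0.7502 CPM, and globin genes were at or below 0.119 CPM. Xist, expressed from the inactive X chromosome of female cells, measured 314, 184, 243 and 254 CPM, and 4 Y-linked genes were listed at 0 in all 4 libraries.

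Genes known from resident macrophages of other organs were partly present. Tmem119, a membrane protein best known from microglia, measured 1119, 204, 983 and 343 CPM and P2ry12, a purinergic receptor of microglia, 93.2, 46.2, 55.4 and 32.9 CPM, both higher in mice 1 and 3 than in mice 2 and 4. Sall1, which defines microglia, was at or below 0.138 CPM. Markers of liver and peritoneal macrophages were near 0, with Timd4 at 2.03, 9.03, 2.96 and 2.10 CPM, Clec4f listed at 0 and Vsig4 at or below 0.0433 CPM. The alveolar list reached 3354 CPM in mouse 2 through Chil3 alone, a chitinase-like protein, while Marco, Krt79 and Fabp1 were listed at 0. Of the monocyte genes, Ccr2, the receptor that brings monocytes into tissue, was high at 907, 817, 646 and 641 CPM, while Ly6c2 measured 19.8, 105, 45.2 and 48.7 CPM.

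The transcriptome was led by a small set of genes. The 10 highest genes held 9.69% ± 1.34 of the counts, the 100 highest 27.01% ± 2.60 and the 1000 highest 57.1% ± 2.52. In all, 12465 genes reached at least 1 CPM in all 4 libraries, of which 10460 are protein-coding, 1412 are pseudogenes and 143 are lincRNAs, and 93 genes had a mean of at least 1000 CPM. Behind Apoe came Cd74, the invariant chain that escorts MHC class II molecules, at 7190.3, 24823, 11424 and 13770.2 CPM, and H2-Ab1, an MHC class II beta chain, at 5214, 24104, 8228 and 10384 CPM. In mouse 2 both exceeded Apoe, and in mouse 4 Cd74 and H2-Ab1 did so too, so that the first place differed between mice. Tmsb4x, which encodes the actin-binding peptide thymosin beta 4, followed at 9851, 11608, 8514 and 11195 CPM. Fth1, the heavy chain of the iron store ferritin, measured 9010.3, 11904, 9062 and 9952 CPM, Lyz2, the lysozyme of myeloid cells, 11128, 9301, 7289 and 7234 CPM, and Actb, cytoplasmic actin, 9307, 8210.2, 7771 and 8095 CPM. Ranks 8 to 12 were H2-D1, the mitochondrial ribosomal RNA mt-Rnr2, Psap, C1qb and H2-Aa.

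**Figure D2:**
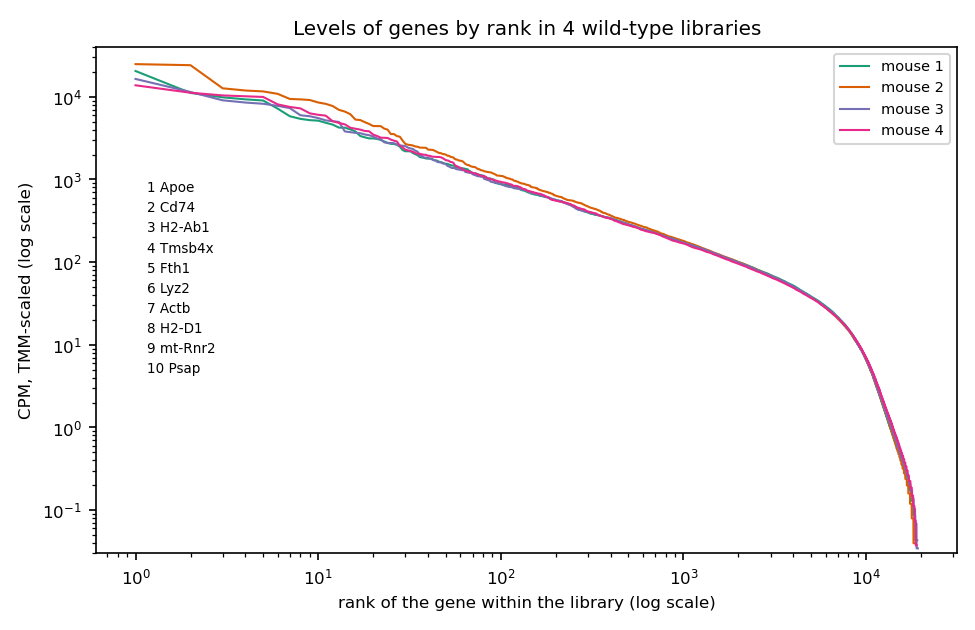
Each line is 1 mouse, with genes ordered by their own level in that library on the x axis (rank, log scale) and CPM on the y axis (log scale); the 10 names are the highest genes by mean CPM. The 4 lines nearly coincide among the lower-ranked genes, and the line of mouse 2 lies above the others among the highest genes, where its 10 highest genes hold 11.7% of the counts.

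Corrected for gene length, the order changed but several leading genes stayed near the top. Of the 100 highest genes by CPM, 57 were also among the 100 highest by RPKM, which held 29 pseudogenes against 2 by CPM. Orders of close genes depend on the length used. Cd74 has 1679 exon bases and a longest transcript of 1410 bases, and Apoe 2138 and 1408. Per kilobase, Cd74 reached 8518 RPKM, Tmsb4x 7507 RPKM, Apoe 6982 RPKM, Lyz2 6639.8 RPKM and C1qb 5591 RPKM, and these were ranks 2 to 6 by that measure. Fn1, the long matrix protein fibronectin, fell from rank 36 by CPM to rank 343 per kilobase, and Csf1r from rank 28 to rank 131. B2m, the short light chain of MHC class I, moved from rank 19 to rank 8.

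Grouped by function, 31 lists of 907 genes held 33.7% of the counts on average. The actin cytoskeleton list was highest at 39278 ± 1747 CPM in sum, followed by MHC class II at 38339.7 ± 24116 CPM and the lysosomal list at 35522 ± 4366 CPM. The mouse-to-mouse range of MHC class II, 17529 to 72818 CPM, spans both of its neighbours, so the order of these 3 is not set. The lipid-associated, immediate early and MHC class I lists came next at 22660.4 ± 4398, 21235 ± 2755 and 20789 ± 4982 CPM, and their ranges overlap too. A list's sum depends on how many genes it holds and how long they are, so these values rank the use of reads and not numbers of molecules.

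**Figure D3:**
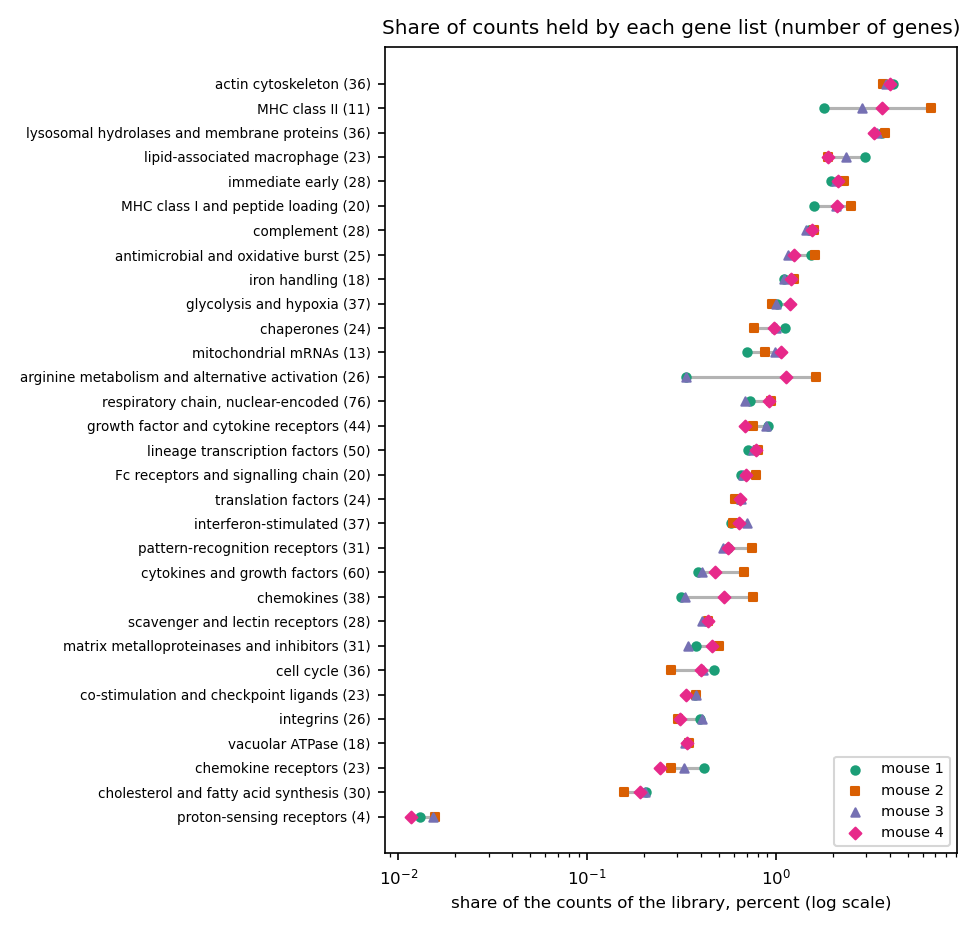
Each row is a function list (number of genes in brackets), each point the percent of all counts of 1 mouse that the list holds, on a log axis, and the grey line spans the 4 mice. The points of the actin cytoskeleton list nearly coincide, whereas MHC class II reaches 6.63% of counts in mouse 2 against 1.80% in mouse 1, and the arginine metabolism and alternative activation list 1.62% against 0.333%.

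Antigen presentation on MHC class II took a large and uneven share. Members of a list are counted by their mean CPM over the 4 mice. All 11 genes of the class II list had reads, 8 had a mean of at least 100 CPM and 5 of at least 1000 CPM. H2-Aa, the alpha chain that pairs with H2-Ab1, measured 2190.2, 10851, 3501 and 4638 CPM in mice 1 to 4, and H2-Eb1, the beta chain of the class II molecule I-E, 1682, 9139, 2769 and 4222 CPM. Of the 10 members with a mean of at least 10 CPM, 10 were highest in mouse 2 and 9 lowest in mouse 1, so nearly all members shared the same highest and lowest mouse. Per kilobase H2-Ab1 reached 4666 RPKM, H2-Eb1 2291 RPKM and H2-Aa 1394 RPKM. By reads H2-Aa, with a mean of 5295 CPM, was above H2-Eb1 at 4453 CPM. Their reverse order per kilobase rests on the exon lengths used, 3798 bases for H2-Aa and 1944 for H2-Eb1. The MHC class I and peptide loading list had a smaller CV, 23.96% against 62.9%, and of its 20 members 12 were highest in mouse 2 and 16 lowest in mouse 1. For such counts, here and below, the share over all genes at 10 CPM was not counted. Among 439 protein-coding genes at 50 CPM or more that ranged at least 2-fold, 200 were highest in mouse 2. Mouse 1 was lowest for 152 of them. Lists of other functions also had many members highest in mouse 2, with 44 of 64 ribosomal protein genes and 13 of 24 translation factors, but 1 of 35 cell cycle genes. H2-D1, a heavy chain, measured 4608, 9408, 5974 and 6302 CPM and B2m 2998, 5229.6, 3809.6 and 3858 CPM, highest in mouse 2 and lowest in mouse 1. The inducible proteasome subunit Psmb8, which shapes the peptides that class I presents, measured 297, 619, 388 and 538 CPM. H2-D1 and H2-K1 share sequence with other class I genes (12.8% and 9.63% of their 50-base words), so how reads divide among class I genes is uncertain.

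The 250 bases upstream of the start sites of class II genes were read for the CCAAT box, the letters bound by NF-Y. The box is a known part of class II promoters, so finding it there was likely in advance. Its part in the shared order of mice was not tested. RefSeq promoters (GRCm38.p6) were at hand for 8 genes of the list, with 9 start sites, and 8 of these 9 windows hold CCAAT on either strand, against 33.8% of 32851 windows of the same length genome-wide. It was also in 7 of 14 windows of the 15 genes with the lowest CV between mice and in 5 of 17 windows of the 20 with the highest. The pair of windows shown, that of H2-Aa at chr17:34287824-34288073 (minus strand) and that of H2-Eb1 at chr17:34305617-34305866 (plus strand), belong to the highest class II genes with an entry. Capitals mark CCAAT, or ATTGG where the box lies on the other strand, and both are printed 5′ to 3′ towards the start site.
H2-Aa: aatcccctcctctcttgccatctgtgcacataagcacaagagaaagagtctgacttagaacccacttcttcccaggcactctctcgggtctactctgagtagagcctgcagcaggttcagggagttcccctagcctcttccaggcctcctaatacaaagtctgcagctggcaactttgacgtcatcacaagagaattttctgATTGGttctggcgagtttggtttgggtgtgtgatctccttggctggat
H2-Eb1: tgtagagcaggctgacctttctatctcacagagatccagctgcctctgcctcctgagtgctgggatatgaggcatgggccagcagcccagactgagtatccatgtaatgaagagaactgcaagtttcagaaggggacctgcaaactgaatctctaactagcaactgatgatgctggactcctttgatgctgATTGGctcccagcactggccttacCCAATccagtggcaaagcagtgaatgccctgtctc
A match of 5 letters is frequent, and it describes the sequence and not a bound site. The motifs named here were chosen after levels were known.

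Genes of uptake and digestion were high in all 4 mice. All 36 genes of the lysosomal list reached 1 CPM and 28 reached 100 CPM in the mean. Psap, the precursor of the saposins that help degrade sphingolipids, measured 5405, 7736, 5816 and 5909.9 CPM, and Ctsb, a cysteine protease, 4035, 4416, 3431 and 3204 CPM. Ctsc, a protease that activates granule proteases, measured 4229, 4932, 3736 and 4109 CPM, and Grn, the lysosomal growth factor progranulin, 3094, 2575, 3130.3 and 2554 CPM. Ctss, the cathepsin that trims the invariant chain in antigen-presenting cells, measured 3354, 6151, 3306 and 3356 CPM. Mice 1, 3 and 4 lay close together for Ctss and mouse 2 lay far above them. Ctsk, a collagen-degrading cathepsin, went the other way at 112, 12.1, 49.1 and 37.5 CPM, with mouse 1 highest and mouse 2 lowest. The vacuolar ATPase, which acidifies lysosomes, had 17 of 18 genes at 1 CPM or more and a summed level of 3385 ± 283 CPM.

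Lipid handling was dominated by Apoe. The lipid-associated list summed to 28642, 20847, 22841 and 18311 CPM in mice 1 to 4, and 20 of its 23 genes reached 1 CPM. Spp1, the secreted phosphoprotein osteopontin, measured 2489, 909, 1615 and 1872 CPM, and Lgals3, galectin 3, 1369, 2429.6, 1201 and 2011 CPM. Msr1, a scavenger receptor for modified lipoproteins, measured 526, 583, 416 and 539 CPM, and Plin2, the coat protein of lipid droplets, 605, 741, 508 and 646 CPM. Other genes of lipid uptake had fewer reads, with Cd36, a fatty acid transporter, at 22.99, 33.4, 18.1 and 36.9 CPM, Lpl, lipoprotein lipase, at 35.97, 15.4, 16.5 and 30.5 CPM and Fabp4, an adipocyte and macrophage fatty acid carrier, at 2.99, 6.21, 1.69 and 4.50 CPM. Its relative Fabp5 measured 46.3, 191, 21.8 and 69.9 CPM and was highest in mouse 2. Pparg, a nuclear receptor of lipid metabolism, was at 7.45, 4.78, 7.62 and 3.30 CPM. Trem2, a lipid receptor that defines lipid-associated macrophages, was listed at 0 in all 4 libraries, while Tyrobp, the adaptor it signals through, measured 1123, 1435, 939.8 and 1038 CPM; no 50-base word of Trem2 is shared with another gene. The 30 genes of cholesterol and fatty acid synthesis all reached 1 CPM, and their sum was 1879 ± 118 CPM, with a CV of 6.27%.

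Among complement genes, the C1q chains took the most reads and were even between mice. C1qb measured 5811, 6942, 5524 and 6053 CPM and C1qc 3809, 4427, 3661 and 4005 CPM, with CVs of 10.1% and 8.36%. Per kilobase C1qb reached 5591 RPKM, C1qa 2764 RPKM and C1qc 2059 RPKM. The order of C1qa and C1qc depends on the length used. C1qc has 1931 exon bases and a longest transcript of 1203 bases, while C1qa has 1040 by either measure. Cfp, properdin, which stabilises the alternative pathway convertase, measured 621, 806, 523 and 653 CPM. C3, the central component, differed widely at 103, 982, 198 and 414 CPM, highest in mouse 2 and lowest in mouse 1. The terminal components C8b and C9 and the regulator Cfi were listed at 0.

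Receptors for immune complexes and microbes were abundant. Fcer1g, the common signalling chain of Fc receptors, measured 1474, 2036, 1528 and 1711 CPM. The inhibitory receptor Fcgr2b measured 827, 1849, 915 and 1300.4 CPM and the activating receptor Fcgr3 853, 1858, 797 and 1242 CPM, both highest in mouse 2. Cd14, the co-receptor for lipopolysaccharide, measured 2761, 3536, 2372 and 2439 CPM and Tlr2, a receptor for bacterial lipoproteins, 666, 449.9, 668 and 309 CPM. Clec7a, which encodes the beta-glucan receptor Dectin-1, ranged more widely at 185, 2138, 313 and 1023 CPM and was higher in mice 2 and 4 than in mice 1 and 3. Of scavenger receptors, Axl, which binds dying cells through Gas6, measured 904, 723, 976 and 548 CPM and Stab1, a clearance receptor, 992, 422, 849 and 677 CPM, while Cd163, the haemoglobin receptor, was at 1.04, 2.51, 1.10 and 2.33 CPM and Folr2, the folate receptor beta, at 3.46, 2.83, 1.38 and 4.95 CPM. Itgax, which encodes CD11c, measured 335, 457, 427 and 317 CPM and Itgb2, the beta chain shared with CD11b, 691, 1024, 809.6 and 874 CPM.

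Secreted signals were led by interleukin 1 beta. Il1b measured 1782, 4121, 1787 and 1885 CPM, with mice 1, 3 and 4 close together and mouse 2 above them, and its natural antagonist Il1rn measured 191, 594, 199.8 and 332 CPM. Osm, oncostatin M, measured 487, 937, 387 and 672 CPM, Vegfa, which drives vessel growth, 359.9, 620.1, 537 and 483 CPM and Tgfb1 179, 159, 196 and 237 CPM. Other well-known cytokines were low. Tnf measured 29.6, 34.3, 39.9 and 28.9 CPM, Il12b, a subunit of interleukins 12 and 23, 6.62, 26.5, 17.2 and 3.98 CPM, Il10 2.16, 3.74, 4.00 and 3.41 CPM and Il6 0.519, 4.74, 0.758 and 1.69 CPM. These low levels describe RNA at the time of collection. Of chemokines, Cxcl16 had the highest mean CPM at 884, 1112, 936 and 763 CPM in mice 1 to 4, just above Ccl24, which exceeded it in mice 2 and 4. Per kilobase Ccl24 reached 684 RPKM, Ccl8 622 RPKM and Cxcl16 306 RPKM. Ccl2 measured 233, 179, 221 and 297 CPM and Cxcl10 218, 189, 322 and 235 CPM, while Ccl24, Ccl8, Ccl6 and Ccl17 differed strongly between mice and are given below. Among chemokine receptors Cx3cr1, the fractalkine receptor of patrolling monocytes and tissue macrophages, ranged widely at 1633, 233, 1217 and 323 CPM.

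Ligands and receptors that meet T cells were present at moderate levels. Sirpa, which receives the "do not eat" signal of CD47, measured 1258, 1179.7, 1223 and 914 CPM and Vsir, the inhibitory ligand VISTA, 509, 515, 469 and 363 CPM. Cd274, which encodes PD-L1, measured 86.97, 299, 122 and 208 CPM and was highest in mouse 2. Pdcd1lg2, which encodes PD-L2, covered a much wider range at 1.47, 220.03, 4.83 and 89.95 CPM. Of 37 interferon-stimulated genes 36 reached 1 CPM. Their sum had a CV of 7.96%, while the median CV of the members at 10 CPM or more was 20.2%. Ifitm3, an antiviral membrane protein, measured 731, 786, 902 and 865 CPM and Irf7, a master factor of type I interferon, 527, 760.5, 705 and 629 CPM. Of 18 type I interferon genes 13 were listed at 0, and Ifnb1 measured 1.60, 0.557, 1.55 and 0 CPM. Gbp2, a guanylate-binding protein induced by interferon gamma, measured 127, 441, 223 and 319 CPM, and all 9 guanylate-binding proteins with a mean of at least 10 CPM were lowest in mouse 1.

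A pair of transcription factors that specify macrophages varied little. Spi1, which encodes PU.1, measured 502, 628, 559.7 and 555 CPM and Irf8 454, 508, 503 and 460.4 CPM, with CVs of 9.23% and 5.85%. Cebpb, a factor of myeloid activation, measured 652, 1245, 550.4 and 1005 CPM, higher in mice 2 and 4. Immediate early genes, which respond within minutes to stimulation and also to tissue dissociation, took 2.11 ± 0.143% of the counts. Fos measured 5144, 5294, 5185 and 4826 CPM, with a CV of 3.93%. Junb measured 2193, 4005, 2529.8 and 3492 CPM and Dusp1, a phosphatase that ends MAP kinase signals, 2086, 2695, 2429 and 2052 CPM. Whether the levels of these genes were set in the tumour or during cell preparation was not tested. The heat shock proteins Hspa1a and Hspa1b measured 514, 49.3, 234 and 167 CPM and 879, 59.9, 405 and 247 CPM, highest in mouse 1 and lowest in mouse 2, and these near-identical genes can exchange reads.

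Most energy metabolism genes had reads, with 3 of 76 nuclear-encoded respiratory chain genes and 4 of 13 mitochondrial mRNAs listed at 0. The glycolysis and hypoxia list summed to 10380.2 ± 818 CPM and all 37 of its genes reached 1 CPM. Ldha, which makes lactate, measured 1444, 1540.01, 1401 and 1676 CPM, Pkm, a pyruvate kinase, 1353, 1412, 1328 and 1587 CPM, and Slc2a1, the glucose transporter GLUT1, 400, 397, 333 and 422 CPM. Slc16a3, which exports lactate with a proton, measured 375, 364, 361 and 472 CPM. Of the proton-sensing receptors, Gpr65 reached 45.5 RPKM, Gpr132 12.2 RPKM and Gpr4 0.191 RPKM. Gpr132 measured 21.1, 36.9, 41.5 and 32.9 CPM and Gpr4 0.476, 0.199, 1.41 and 0.113 CPM. The nuclear-encoded respiratory chain summed to 7097, 10329, 6635 and 8934 CPM in mice 1 to 4, and 55 of its 68 genes at 10 CPM or more were highest in mouse 2 and 50 lowest in mouse 3. Genes of the cell cycle were present, with Mki67, a protein of dividing cells, at 305, 60.97, 215 and 150.1 CPM and Top2a, a DNA topoisomerase, at 266, 80.98, 168 and 175 CPM. Of 35 cell cycle genes at 10 CPM or more, 29 were highest in mouse 1 and 33 lowest in mouse 2. The highest member, the cell cycle inhibitor Cdkn1a, went the other way at 506, 1219, 588 and 923 CPM. Solute carriers had the smallest CV of the 26 gene families summed, with 379 genes summing to 11161 ± 156 CPM and a CV of 1.40%. That value belongs to the sum, since the median CV of its members at 10 CPM or more was 17.4%, near the 17.3% of all genes at that level.

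Between mice, most genes varied moderately and a few varied by orders of magnitude. The common biological coefficient of variation estimated by edgeR was 29.9% over 13990 genes. Among 9169 genes with a mean of at least 10 CPM the median CV was 17.3%, against 3.01% that counting alone would give at this depth. Of these genes 1749 had a CV under 10% and 41 a CV over 100%. Leaving out mouse 1 gave 22 genes over 100%, leaving out mouse 2 gave 30, leaving out mouse 3 gave 27 and leaving out mouse 4 gave 64. Among 3747 protein-coding genes with a mean of at least 50 CPM, the highest and lowest mouse differed by at least 2-fold for 439, by at least 10-fold for 25 and by at least 50-fold for 9. Mouse 2 was highest for 23 of the 25 and mouse 1 lowest for 19, and for 22 of the 25 both mouse 2 and mouse 4 exceeded both mouse 1 and mouse 3. Among the 439 this order held for 195 genes and its reverse for 191. The first principal component of the 500 most variable genes held 78.1% of their variance, with scores of -24.1, 28.1, -15.9 and 11.9 for mice 1 to 4.

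**Figure D4:**
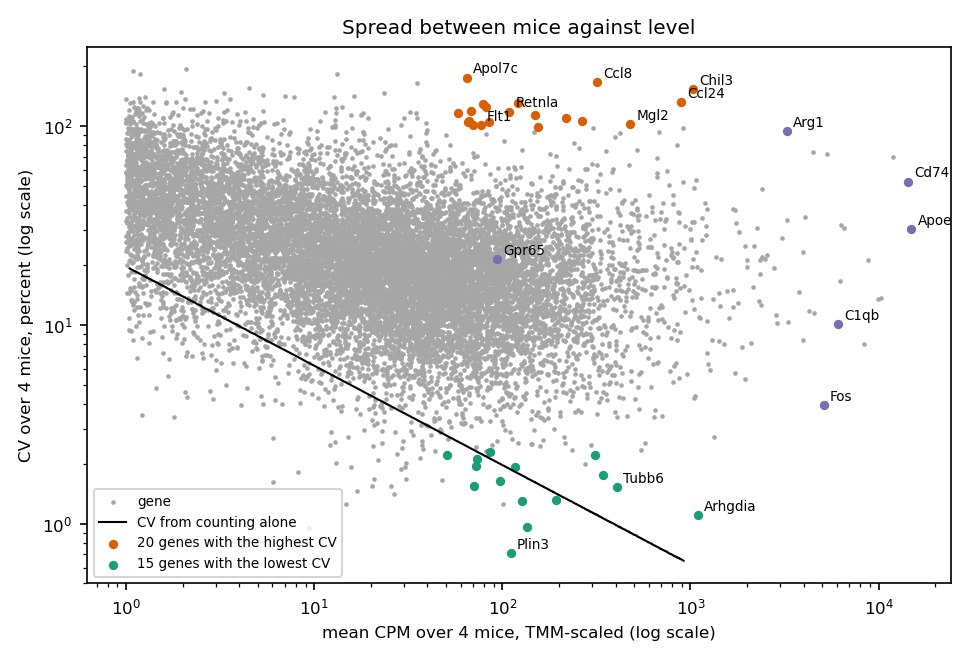
Each grey point is a gene with a mean of at least 1 CPM, with its mean CPM over 4 mice on the x axis and its CV over 4 mice on the y axis (both log scales); the black line is the CV from counting alone. Orange points are the 20 named protein-coding genes of at least 50 CPM with the highest CV and green points the 15 with the lowest, close to the counting line. Among the highest genes, Cd74 and Arg1 lie far above C1qb and Fos.

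The genes with the largest spread included several alternative activation genes. Of the 22 members of the arginine metabolism and alternative activation list at 10 CPM or more, 16 were highest in mouse 2 and 4 in mouse 1. Arg1 (chr10:24915221-24927484, GRCm38), arginase 1, which consumes arginine, measured 613, 6623, 699.7 and 5069 CPM in mice 1 to 4. Its CV of 94.2% was not among the 20 highest. Chil3 (chr3:106147554-106167564) measured 17.2, 3342, 31.8 and 725 CPM, a 194-fold range, and Retnla, a small secreted protein induced by interleukin 4, 1.47, 258, 1.48 and 173 CPM, a 175-fold range. Mgl2, a lectin of alternatively activated macrophages, measured 50.8, 1054, 91.05 and 724 CPM. In each of these 4 genes mouse 2 was highest and mouse 4 next, and mice 1 and 3 were far below both. The receptor for interleukin 4, Il4ra, was even at 646, 561, 594 and 523 CPM. Nos2, the nitric oxide synthase that competes with arginase for arginine, was low in every mouse at 43.03, 41.03, 38.7 and 65.1 CPM.

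Chemokines with the same order included Ccl24, which attracts eosinophils, at 6.58, 2487, 28.4 and 1024 CPM, a 378-fold range. Ccl8, a monocyte chemokine, measured 7.32, 1102, 7.52 and 156 CPM, Ccl17, which attracts T cells, 2.81, 145, 7.17 and 76.3 CPM and Ccl6, a myeloid chemokine, 64.7, 657, 56.7 and 288 CPM. Eosinophil markers moved in the same order but stayed low, since the 5 genes summed to 1.08, 23.3, 2.31 and 7.09 CPM, with Epx listed at 0, and the share of eosinophil RNA in these values was not tested. Ear2, an eosinophil-associated ribonuclease that macrophages also make, measured 1.17, 337, 4.96 and 139 CPM. Apol7c, an apolipoprotein L gene known from dendritic cells, had the highest CV of the named genes, 175%, with 0.996, 234, 0.724 and 22.7 CPM. The 5 conventional dendritic cell genes at 10 CPM or more were also highest in mouse 2, and all 5 were lowest in mouse 1. Their list summed to 136 and 138 CPM in mice 3 and 4, so it did not set these 2 mice apart as Apol7c did. Batf3, a factor of cross-presenting dendritic cells, measured 8.14, 40.6, 9.998 and 27.1 CPM. The part of dendritic cells in the result was not tested.

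Further genes of this group encode secreted or surface proteins. F10 and F7, the coagulation factors X and VII, measured 13.1, 379, 27.6 and 178 CPM and 2.68, 219.6, 6.55 and 98.02 CPM. Mmp13, a collagenase, measured 57.8, 555, 43.5 and 211 CPM, and Mmp12, the macrophage elastase, 241, 1512, 129.6 and 837 CPM. The CV of Mmp12, 93.5%, was not among the 20 highest. Flt1, a receptor of vascular endothelial growth factor, measured 5.11, 172, 22.4 and 108 CPM, and Mgst1, a microsomal glutathione transferase, 11.2, 156, 13.5 and 80.9 CPM. Except for Ccr7, each of the 20 genes with the highest CV had mice 2 and 4 above mice 1 and 3; in Ccr7 mouse 3 was above mouse 4. A second set ran the other way. Cx3cr1, given above, was 7.01-fold higher in mouse 1 than in mouse 2. Fcrls, an Fc receptor-like gene known from microglia, measured 1044, 114, 524 and 387 CPM. Itgam, Adgre1 and Tmem119 had the same reverse order of mice, with 1 and 3 above 2 and 4.

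**Figure D5:**
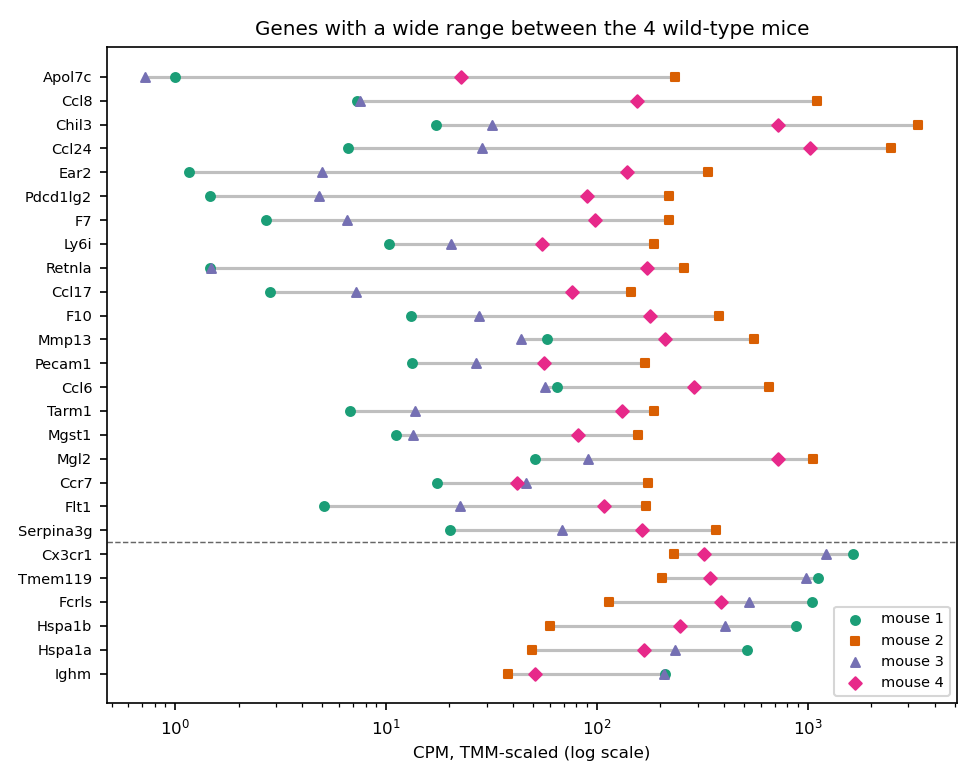
Each row is a gene and each point its CPM in 1 mouse on a log axis, with a grey line over the range. Above the dashed line are the 20 named genes with the highest CV, in which mouse 2 is highest throughout, and below it 6 genes in which mouse 1 is highest and mouse 2 lowest; Chil3 spans 17.2 to 3342 CPM.

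The windows of 250 bases before the start sites of the 20 genes were read for TTCNNNNGAA, the spacing that STAT6, the factor of interleukin 4 signals, is known to favour. The sequence reads the same on both strands. Of 17 windows of 16 genes with an entry, 4 hold it, against 5.85% of all 32851 windows, and 2 of 14 windows of the 15 genes with the lowest CV hold it too. The related TTCNNNGAA was in 3 of the 17 and in 7.02% of all windows. The core of the interferon-stimulated response element, GAAANNGAAA, was read on either strand in the same windows. It was in 2 of the 17, those of Apol7c and Mmp13, in none of the 14 and in 2.98% of all windows. With so few windows the shares are given as counts only, and Ccl24 had no entry. The windows of Chil3, Ear2 and Ccl8, whose ranges between mice exceed 100-fold, hold no TTCNNNNGAA. Of the 4 windows that hold it, 3 are printed, those of genes with a range of over 100-fold, with that match in capitals. They lie at chr15:77533316-77533565 (minus strand) for Apol7c, chr19:29410669-29410918 (plus strand) for Pdcd1lg2 and chr16:48842359-48842608 (plus strand) for Retnla.
Apol7c: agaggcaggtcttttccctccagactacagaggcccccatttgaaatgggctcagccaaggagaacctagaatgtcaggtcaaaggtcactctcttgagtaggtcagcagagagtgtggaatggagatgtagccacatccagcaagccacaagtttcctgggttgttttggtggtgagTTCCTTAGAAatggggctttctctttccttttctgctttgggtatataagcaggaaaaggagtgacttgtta
Pdcd1lg2: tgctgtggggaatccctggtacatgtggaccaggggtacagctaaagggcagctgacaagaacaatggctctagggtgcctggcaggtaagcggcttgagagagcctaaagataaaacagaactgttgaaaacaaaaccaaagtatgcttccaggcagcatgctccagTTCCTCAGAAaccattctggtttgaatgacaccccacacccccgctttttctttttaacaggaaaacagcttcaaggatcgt
Retnla: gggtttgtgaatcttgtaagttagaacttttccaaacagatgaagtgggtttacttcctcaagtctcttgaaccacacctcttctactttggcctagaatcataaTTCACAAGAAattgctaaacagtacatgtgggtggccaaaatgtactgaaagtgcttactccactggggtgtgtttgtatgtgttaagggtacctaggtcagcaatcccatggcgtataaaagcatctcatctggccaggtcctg
A match is a description of letters and says nothing about binding in these cells.

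At the other end, 15 protein-coding genes barely differed between mice. Plin3, a coat protein of lipid droplets, measured 111, 111, 112 and 109.9 CPM, a CV of 0.711%, which is below the 1.87% that counting alone gives on average. Arhgdia, which holds small GTPases inactive, measured 1106, 1078, 1101 and 1099 CPM, and Tubb6, a beta tubulin, 411, 399.5, 411 and 401 CPM. Ybx1, an RNA-binding protein, measured 349.5, 339, 345 and 336 CPM, Puf60, a splicing factor, 191, 189.6, 196 and 191 CPM and Ccnd3, cyclin D3, 84.4, 87.6, 88.2 and 84.6 CPM. These were chosen as the lowest of 3709 genes, and the lowest CVs of so many genes over 4 mice lie below their long-run values.

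Genes with no reads included large families that serve other organs. Of 53379 genes, 28005 had 0 counts in all 4 libraries, among them 6834 of 21865 protein-coding genes (31.3%). A gene with 0 counts over the 4 libraries could have a level of up to 0.0289 CPM, the value of 3 counts, and this covers counting error only. Of the 26 families, olfactory receptors held the most such genes, with 1328 of 1406 listed at 0 and a sum of 14.6 ± 5.60 CPM. Vomeronasal receptors followed with 546 of 567 listed at 0. Of solute carriers 97 of 379 were listed at 0, of cytochrome P450 genes 87 of 123, of defensins 80 of 82 and of keratin-associated proteins 57 of 58. Genes of liver, neurons and muscle stayed at or below 2.55 CPM in sum, with albumin (Alb) listed at 0. Of the 907 genes in the function lists, 37 were listed at 0.

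Some of these zeros go against what cells need. Of 273 protein-coding genes of the ribosome, translation factors, proteasome, chaperones, vacuolar ATPase and respiratory chain, 7 were listed at 0, and none of the others had fewer than 21 counts, with a median of 75.4 CPM. They include Uqcrc1, a core subunit of respiratory complex III, Ndufs3 of complex I, Atp5a1, the alpha subunit of ATP synthase, Atp6v1c1 of the vacuolar ATPase and Psmd10, a proteasome assembly factor. No 50-base word of Uqcrc1, Atp6v1c1 or Psmd10 is shared with another gene and none of their exon bases overlap one, so annotated copies of these genes were not found. Trem2, Egr2, a factor of alternative activation, Kif11, a mitotic motor, and Ifi47 were listed at 0 in the same way. These entries are therefore given as listed at 0 and not as absence. Among protein-coding genes at 0, 726 (10.6%) share at least 90% of their words with other genes, against 18 (0.172%) of those at 1 CPM or more in all 4 libraries.

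Some RNAs of every cell had low entries, and some pseudogenes that share sequence with such genes had high ones. Gapdh, a glycolytic enzyme of every cell, measured 41.2, 27.3, 40.8 and 50.9 CPM, Ppia, cyclophilin A, 15.2, 14.7, 18.9 and 12.04 CPM and Tpt1, a translation-associated protein, 26.8, 29.5, 33.7 and 34.02 CPM. In contrast the pseudogene Gm10123, all of whose words occur in Ppia, measured 824, 859, 773 and 941 CPM, and Eif4a-ps4, which shares 95.7% of its words with Eif4a1, measured 736, 708, 682 and 686 CPM. Oaz1-ps shares 92.1% with Oaz1 and measured 657, 796, 612 and 766 CPM. Genes annotated as pseudogenes, among them Clec7a, which this annotation lists as polymorphic, took 6.25% ± 0.522 of all counts, and 29 of the 100 highest genes per kilobase were pseudogenes against 2 by CPM. The sources used here do not state how reads were divided between such copies, so levels of ribosomal proteins, of Gapdh and of the ferritin light chain Ftl1 (157, 88.98, 161 and 172 CPM) cannot be read as the expression of the gene. The cytosolic ribosomal protein family summed to 5668 ± 1065 CPM, and 85 of its 91 genes reached 1 CPM.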

How the data were processed

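RNA of macrophages sorted from MC38 tumours was sequenced, and the authors deposited a table of raw read counts per gene for 7 libraries, whole numbers without normalization. Libraries came from polyA RNA and a SMART-seq kit, which amplifies full-length cDNA, per the labels' protocols. BWA 0.7.12, cutadapt 1.15, DESeq2 1.24.0 and FastQC 0.11.5 were among the tools and GRCm38 was the build, per the submitters' processing notes. The counting program and its use of strand are not given in the sources used here, and a gene may share reads with its antisense partner.

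Columns were assigned to mice by the names in the labels, and only the 4 wild-type libraries entered. Of 53379 identifiers, 53274 matched GENCODE M21 (99.8%), and 1319 symbols were replaced by the annotation's. CPM used TMM factors from these 4 libraries (edgeR 4.0.16, R 4.3.3), and the biological coefficient of variation came from an intercept-only fit with the default filter, tested on simulated data. RPKM used the summed length of each gene's exons. Pairs of libraries differed beyond sampling noise, so none was a repeat. Shared sequence is the percent of a gene's 50-base words found in transcripts of other genes.

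The named genes are the 40 highest, the markers, the 4 highest members and the members at 0 of each function list, the 20 protein-coding genes with the highest and the 15 with the lowest CV at 50 CPM or more, the 5 highest members of each family, and Gpr65. Others, such as C3, Nos2, Tnf, Cd36, Gapdh and Fcrls, were added once their values had been seen. The lists were chosen with earlier results of these data known. The alternatives were other scaling, other minimum levels, DESeq2 1.42.0 dispersions, transcript lengths and each mouse left out in turn.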

Additional observations from a re-analysis of the deposited data

Results flagged for a closer look

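Of 153 sets of 4 values examined (library measures, list sums and leading genes), 11 had 1 mouse far from the other 3, by the gap to its nearest neighbour as a share of the whole range beyond Dixon's 95% critical value (7.19%). The rule passes about 1 in 20 independent sets by chance, but these sets share genes and some were chosen for a wide spread, so that share is no yardstick for them. Mouse 2 was the mouse apart in 10 of the 11. Mouse 2 was apart with the lowest TMM factor (a gap of 0.9512) and with the highest share of counts in the 10 highest genes (0.8308). Among genes, mouse 2 was apart and high for Ctss (0.9825), Il1b (0.9556), Apol7c (0.9056) and Ccl8 (0.8645). Among lists, mouse 2 was apart and high for the Ms4a family of membrane proteins (0.8957), the pattern-recognition receptors (0.8865), the Fc receptors and signalling chain (0.8447) and the vacuolar ATPase (0.8293). Mouse 4 was apart with the lowest number of genes at or above 100 CPM (0.839), which was 1887 against 1986 to 2005 in the others.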

How the results depend on the processing

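The number of genes at 1 CPM, the number at 0, the share of the 100 highest genes and the overlap of ranks stayed within 1.5 times or 1 SD of their values under each alternative run. Of 82 list and family sums, 1 moved by more than 1 SD without mouse 2 and 1 without mouse 3, and of 57 with scaling over all 7 libraries 1 did. The biological coefficient of variation was 44.9% with no filter on low counts. The number of genes with a CV over 100% was 153 at a minimum of 1 CPM and 19 at 50 CPM, and it lay between 22 and 64 when 1 mouse was left out. Of 516 gene levels, 18 moved by more than 1 SD without mouse 2, 3 to 5 without each of the other mice, 15 with scaling over all 7 libraries and 0 with library totals or DESeq2 size factors. No paired analysis was possible because 1 group was described and the results come from no test. Depth limits only the low genes: 3 counts over the 4 libraries equal 0.0289 CPM.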
